A study of Mus musculus with 4 samples.

Results

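The genes described here are 10 members of the bone morphogenetic protein (BMP) pathway, Bmp2, Bmp4, Fst, Chrdl1, Smad6, Smad7, Id1, Id2, Id3 and Id4, chosen by name from 32287 features of 4 single-cell RNA libraries of sorted mouse aortic cells. The choice was made with earlier results of these data known, so counts of called members below are a description. The mice were 12 weeks old and carried Wnt1-Cre2 together with the mT/mG reporter, which makes a cell and its descendants switch from membrane tdTomato to membrane eGFP once Cre has acted. Wnt1-Cre2 acts in the neural crest, so eGFP marks cells that descend from a cell with Cre activity there and tdTomato marks cells without it. Viable single cells that stained for ITGA8, an integrin chain on the surface of smooth muscle cells, were sorted from a digest made in the cold and counted with 10x Genomics 3′ v3.1 kits. The libraries were Arch-GFP (aortic arch, GFP-positive cells), Root (aortic root, with both reporters in 1 library), Asc-GFP and Asc-RFP (ascending aorta, GFP-positive and RFP-positive cells, RFP being tdTomato). All 4 carry the same strain label, and each condition had 1 library, so no test between conditions was possible. The sources used here do not give the number of animals behind a library, and every group depends on Cre activity as read by the reporter.

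BMP ligands such as BMP2 and BMP4 bind pairs of type I and type II receptors, which phosphorylate SMAD1, SMAD5 and SMAD9, and these enter the nucleus with SMAD4. Secreted antagonists such as follistatin and chordin-like 1 hold ligands away from the receptors, and the inhibitory SMADs, SMAD6 and SMAD7, act inside the cell as feedback brakes. The Id genes are classical direct targets and encode helix-loop-helix proteins that lack a DNA-binding region. In the vessel wall BMP signalling is known for its part in smooth muscle phenotype, in endothelial quiescence and in calcification.

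A barcode was kept if it had 1000 or more detected genes and no more than 10% of its UMIs, molecules counted by their molecular identifier, from mitochondrial genes. That left 8031 cells in Arch-GFP, 2960 in Root, 6408 in Asc-GFP and 4030 in Asc-RFP. Their medians lay between 12628 and 13605 UMIs. In Root, 576 cells with at least 8 eGFP UMIs and at most 1 tdTomato UMI are called Root eGFP cells. Another 1832 cells with at least 2 tdTomato and at most 7 eGFP UMIs are called Root tdTomato cells, and 552 cells met neither rule. All 12 smooth muscle markers were detected in every group, with a summed level of 53190 counts per 1000000 UMIs (CPM) in Arch-GFP, 56310 in Root eGFP cells, 53081 in Root tdTomato cells, 57172 in Asc-GFP and 60806 in Asc-RFP. Pairs of libraries shared 4 to 18 barcodes, at most 0.347% of the cells of either. The sexes were mixed unequally. Of the cells with UMIs of Xist or of a Y-linked gene but not of both, 29.1% were female in Arch-GFP, 88.2% in Root eGFP cells, 87.0% in Root tdTomato cells, 70.1% in Asc-GFP and 54.4% in Asc-RFP. Levels below are UMIs summed over cells, in CPM, with an exact 95% Poisson interval. Ratios are log2 ratios of these levels with an exact conditional binomial interval. Both intervals cover counting error only, not the spread between animals.

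**Figure D1:**
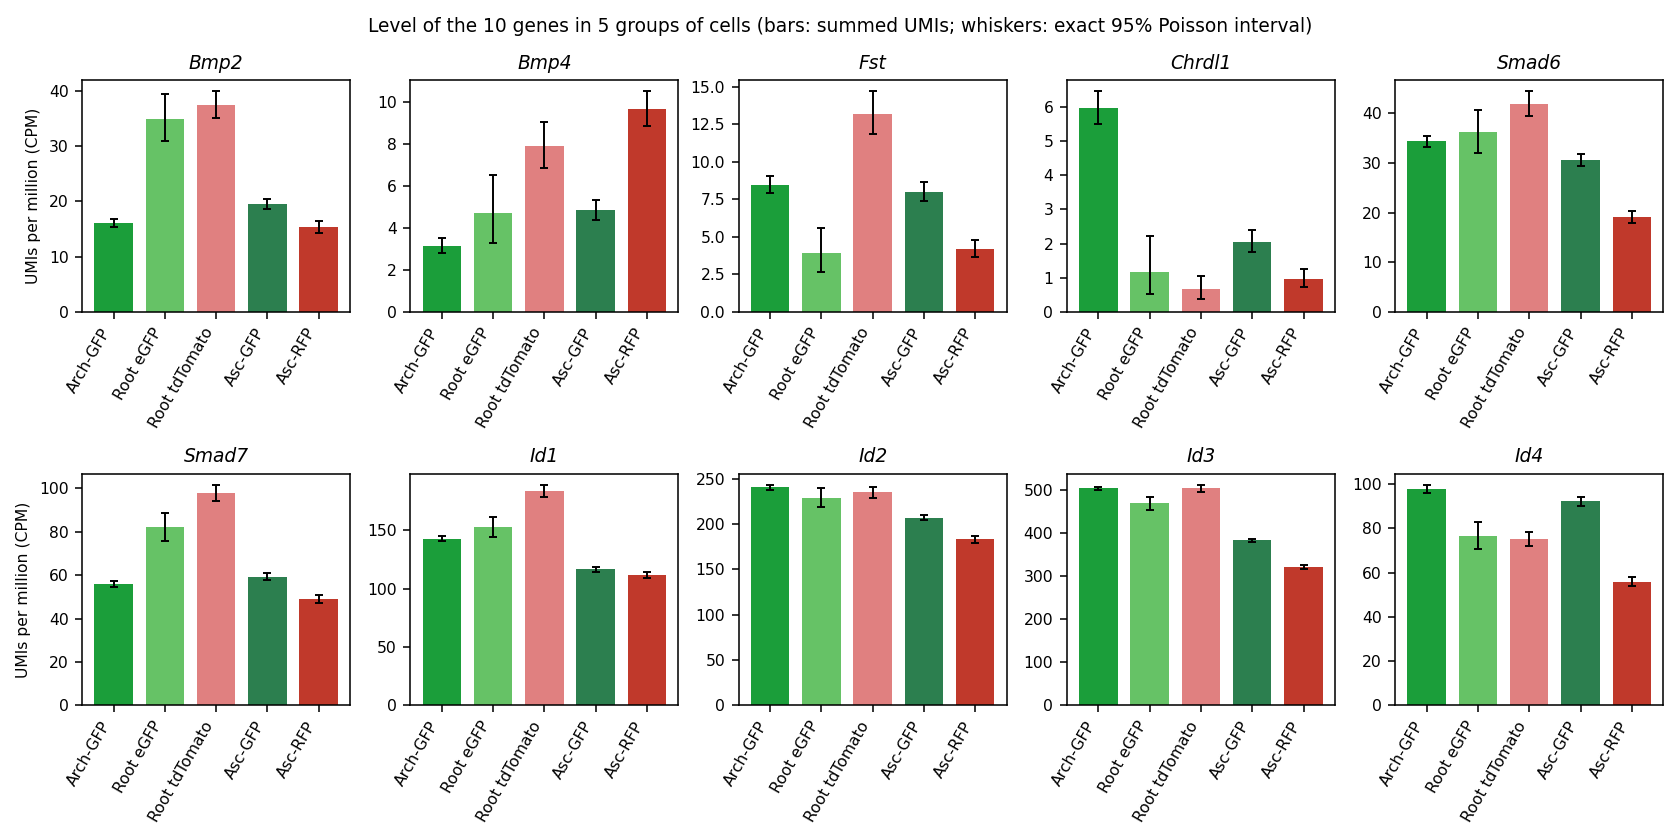
Level of each of the 10 genes in CPM (y axis) in Arch-GFP, Root eGFP cells, Root tdTomato cells, Asc-GFP and Asc-RFP (x axis). Bars are summed counts of 1 library or part of it, and whiskers are exact 95% Poisson intervals. Bmp2 and Smad7 stand highest in both groups of root cells, Chrdl1 in Arch-GFP at 5.96, and Asc-RFP is lowest for 7 of the 10 genes, Bmp2, Smad6, Smad7 and the 4 Id genes.

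The ligand Bmp2 (chr2:133552159-133562885 of mm10, plus strand) was highest in the root. It stood at 16.1 CPM in Arch-GFP, 34.9 in Root eGFP cells (30.9 to 39.4), 37.5 in Root tdTomato cells (35.1 to 39.9), 19.5 in Asc-GFP and 15.3 in Asc-RFP. The intervals of both root groups overlap, as do those of Arch-GFP and Asc-RFP, and Asc-GFP lay between these pairs. The log2 ratio was 1.29 for Root tdTomato cells over Asc-RFP, with an interval of 1.16 to 1.43, and 0.84 for Root eGFP cells over Asc-GFP, with an interval of 0.65 to 1.03. For Arch-GFP over Root eGFP cells it was -1.12, with an interval of -1.31 to -0.93. For Root eGFP over Root tdTomato cells it was -0.10, and the interval of -0.30 to 0.10 held 0. The root excess stood in cells of both sexes against Asc-RFP, at 1.14 in female and 1.62 in male cells. Against Asc-GFP the ratio for Root eGFP cells was 0.87 in female cells, and 0.38 in male cells, where only 64 Root eGFP cells were male and the interval held 0.

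Bmp2 was found at low counts in many cells, though not evenly. Cells with at least 3 Bmp2 UMIs held 17.3% of them in Arch-GFP. In Root tdTomato cells they held 36.1%, being 4.75% of the cells. A UMI was found in 15.1% of Arch-GFP, 30.7% of Root eGFP, 31.5% of Root tdTomato, 17.9% of Asc-GFP and 14.7% of Asc-RFP cells. After each cell was thinned to 4000 UMIs these shares were 5.89% in Arch-GFP, 11.4% in Root eGFP cells, 11.7% in Root tdTomato cells, 7.04% in Asc-GFP and 5.31% in Asc-RFP. Root cells with UMIs of at least 3 macrophage markers, a type taken as background, had a thinned share of 9.46%, with an exact binomial interval of 3.89 to 18.5% over 74 cells. Those cells also held 10894 CPM of the smooth muscle gene Acta2, against 19105 in root cells without markers of another type, so they are not free of smooth muscle RNA. By level, Bmp2 was at 21.5 CPM in root macrophage marker cells and at 4.66 in the 48 root cells with at least 3 endothelial markers, against 37.8 in the other root cells. In Asc-RFP the 62 macrophage marker cells held 10 Bmp2 UMIs, 27.2 CPM with an interval of 13.1 to 50.1, so there the level in the other cells, 15.3, was not above this background.

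Bmp4 (chr14:46383520-46390669, minus strand), the second ligand, was a rare transcript. It stood at 3.14 CPM in Arch-GFP, 4.69 in Root eGFP cells, 7.89 in Root tdTomato cells, 4.85 in Asc-GFP and 9.64 in Asc-RFP. The intervals of Root tdTomato cells and Asc-RFP overlap, and so do those of neighbours among the 3 lower groups. The RFP or tdTomato cells were thus the higher ones in both segments. The log2 ratio was -0.99 for Asc-GFP over Asc-RFP, with an interval of -1.18 to -0.80, and -0.75 for Root eGFP over Root tdTomato cells, with an interval of -1.30 to -0.23.

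The endothelial list was likewise lower in the GFP-positive cells of both segments. Its 10 markers summed to 20.3 CPM in Arch-GFP with 6 detected (Cdh5, Emcn, Robo4 and Cldn5 at 0), and to 40.4 CPM in Root eGFP cells with 7 detected (Kdr, Robo4 and Cldn5 at 0). In Root tdTomato cells all 10 were detected, at 115 CPM. Asc-GFP had 9 detected, with Robo4 at 0, and 26.9 CPM, and Asc-RFP had all 10 and 36.7 CPM. Cells with at least 3 of these markers numbered 0 in Arch-GFP and in Root eGFP, 34 in Root tdTomato, 2 in Asc-GFP and 15 in Asc-RFP. In the 48 such cells of the whole Root library Bmp4 stood at 214 CPM. Cells with at least 3 markers of another type, macrophages included, held 41.4% of all Bmp4 UMIs of Root tdTomato cells and 34.8% of those of Asc-RFP. Without them Bmp4 was at 4.22 CPM in Asc-GFP against 6.35 in Asc-RFP, and the ratio of Asc-GFP over Asc-RFP was -0.59. Between Root eGFP and Root tdTomato cells the ratio was then -0.03. In single cells Bmp4 ran most closely with Pecam1, which encodes an endothelial adhesion molecule, at a mean Pearson correlation of 0.19 over the 4 libraries. The correlation was 0.32 in Root and 0.30 in Asc-RFP, but 0.09 in Asc-GFP and 0.04 in Arch-GFP. Pecam1 itself, at 27.8 CPM in Arch-GFP and 22.3 in Root tdTomato cells, did not follow the order of Bmp4 over the groups. All 10 macrophage markers were detected in each group, summing to 24.0 CPM in Root eGFP against 693 in Root tdTomato cells, and to 7.06 in Asc-GFP against 184 in Asc-RFP, but root macrophage marker cells held only 1 Bmp4 UMI.

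**Figure D2:**
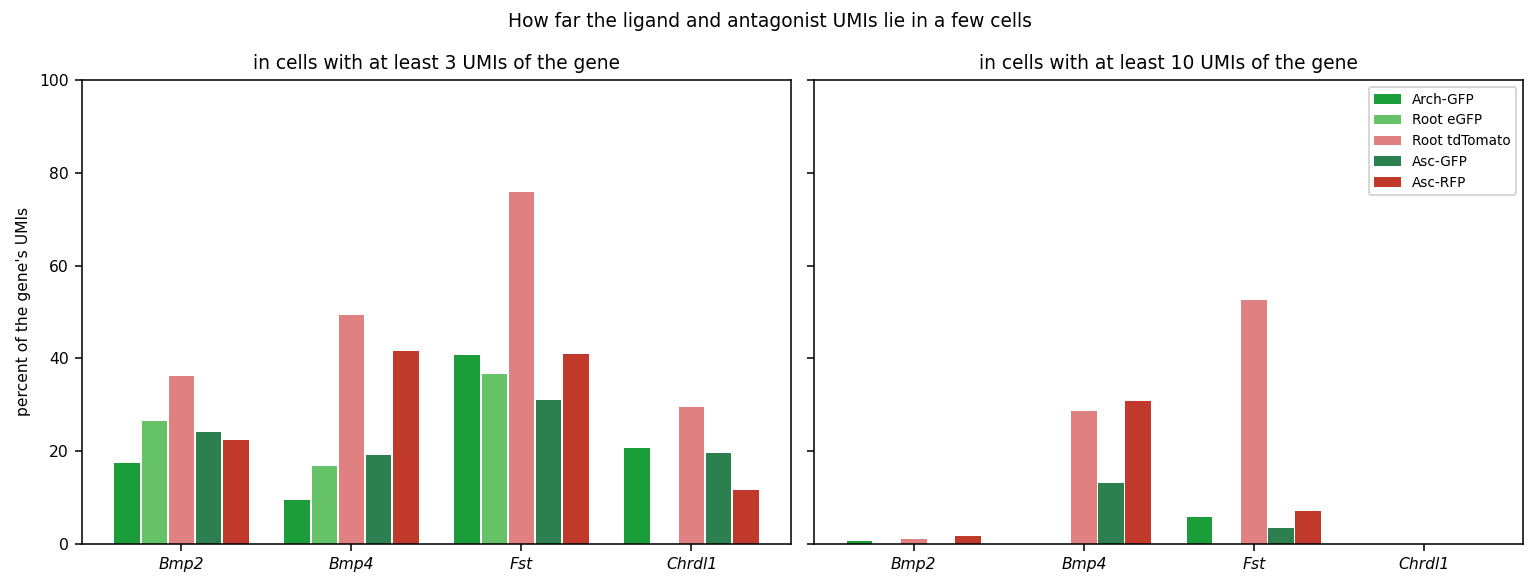
Percent of a gene's UMIs (y axis) that lie in cells with at least 3 UMIs (left panel) or at least 10 UMIs (right panel) of that gene, for Bmp2, Bmp4, Fst and Chrdl1 in the 5 groups of cells. In Root tdTomato cells 52.6% of Fst UMIs lie in cells with at least 10, and Bmp4 is concentrated most in Root tdTomato cells and Asc-RFP.

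Fst encodes follistatin, a secreted binder of activins and of some BMPs (chr13:114452290-114458951, minus strand). Its level ran opposite ways with the reporter in the root and in the ascending aorta. Root eGFP cells had 3.91 CPM against 13.2 in Root tdTomato cells, a log2 ratio of -1.76 with an interval of -2.35 to -1.22. Asc-GFP had 8.0 against 4.21 in Asc-RFP, a ratio of 0.93 with an interval of 0.71 to 1.15. Arch-GFP, at 8.47, lay beside Asc-GFP, with a ratio of 0.08 whose interval of -0.07 to 0.23 held 0.

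The root difference rested on very few cells. Only 92 of 1832 Root tdTomato cells held an Fst UMI, 1 cell held 56, and 5 cells with at least 10 UMIs held 52.6% of the total. Without those 5 cells Root tdTomato stood at 6.28 CPM, against 3.91 in Root eGFP cells, where no cell reached 10. In Asc-GFP 438 cells held a UMI and the richest held 12. The 23 Root tdTomato cells with at least 3 Fst UMIs had 1212 CPM of Dcn and 387 of Lum, 2 matrix genes of the fibroblast marker list. Root tdTomato cells without Fst had 65.4 of Dcn and 20.5 of Lum. Marker cells of other types were left out. Dcn was also the gene nearest to Fst over cells of these libraries, so its higher value here restates that choice. Acta2 was at 14060 CPM in those 23 cells, against 19356 in the cells without Fst. Other markers of the fibroblast list are not reported here for those 23 cells. The fibroblast markers summed to 909 CPM in Root eGFP cells, with all but Dpt detected, against 972 in Root tdTomato cells, with all 10 detected. The part of Dcn-rich and Lum-rich cells in the Fst ratios was not tested.

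Chrdl1 encodes chordin-like 1, a secreted BMP antagonist, and lies on the X chromosome (chrX:143285674-143394262, minus strand). It stood apart in the arch, at 5.96 CPM in Arch-GFP, 1.17 in Root eGFP cells, 0.661 in Root tdTomato cells, 2.06 in Asc-GFP and 0.964 in Asc-RFP. Intervals overlap between each neighbouring pair below Arch-GFP. The log2 ratio of Arch-GFP over Asc-GFP was 1.54, with an interval of 1.29 to 1.79, and it was 1.59 in female and 1.55 in male cells. Arch-GFP held 602 UMIs in 441 cells with at most 6 in 1 cell, so no single cell carries the difference. Between Asc-GFP and Asc-RFP both levels lay under 5 CPM, and the ratio of 1.09 was not called.

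Smad6 (chr9:63953076-64022059, minus strand) encodes the inhibitory SMAD that acts mainly on BMP receptors. It stood at 34.3 CPM in Arch-GFP, 36.1 in Root eGFP cells, 41.8 in Root tdTomato cells, 30.5 in Asc-GFP and 19.1 in Asc-RFP. Asc-RFP was the lowest, and the intervals of both root groups and of Root eGFP cells and Arch-GFP overlap. The log2 ratio was 0.67 for Asc-GFP over Asc-RFP (interval 0.57 to 0.78) and 1.13 for Root tdTomato cells over Asc-RFP (1.0 to 1.25). Within the root it was -0.21 for eGFP over tdTomato cells (-0.41 to -0.02).

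Smad7 (chr18:75367529-75395935, plus strand) encodes the inhibitory SMAD that blocks both BMP and TGF-beta receptors. It stood at 55.9 CPM in Arch-GFP, 82.0 in Root eGFP cells, 97.8 in Root tdTomato cells, 59.2 in Asc-GFP and 49.1 in Asc-RFP. No neighbouring pair in this order had overlapping intervals. Like Bmp2, it was higher in both groups of root cells than elsewhere. The log2 ratio was 0.99 for Root tdTomato cells over Asc-RFP (0.91 to 1.07), 0.47 for Root eGFP cells over Asc-GFP (0.35 to 0.59) and -0.55 for Arch-GFP over Root eGFP cells (-0.67 to -0.43).

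Id1 (chr2:152736251-152737410, plus strand) encodes the family member most used as a readout of BMP receptor activity. It stood at 143 CPM in Arch-GFP, 153 in Root eGFP cells, 184 in Root tdTomato cells, 116 in Asc-GFP and 112 in Asc-RFP. Both ascending groups lay at the bottom with overlapping intervals, and Root tdTomato cells stood above every other group. Id2 (chr12:25093799-25097140, minus strand) varied least, at 241 CPM in Arch-GFP, 229 in Root eGFP cells, 235 in Root tdTomato cells, 207 in Asc-GFP and 183 in Asc-RFP. Id3 (chr4:136143497-136145755, plus strand) stood at 504 CPM in Arch-GFP, 469 in Root eGFP cells, 504 in Root tdTomato cells, 383 in Asc-GFP and 321 in Asc-RFP. Over all cells Id1 and Id3 were both lower in the ascending aorta than in the arch or the root. For Id1 the arch part turned in female cells, at 83.7 CPM in Arch-GFP against 103 in Asc-GFP. Within each sex, Id2 and Id3 were lower in Arch-GFP than in both root groups. In female cells Id3 was at 386 CPM in Arch-GFP, 437 in Root eGFP and 490 in Root tdTomato. In male cells it was at 540 in Arch-GFP, 702 in Root eGFP and 597 in Root tdTomato.

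Id4 (chr13:48261228-48266026, plus strand) had another order. Over all cells it was highest in the GFP-positive cells of arch and ascending aorta, at 97.8 CPM in Arch-GFP, 76.5 in Root eGFP cells, 75.1 in Root tdTomato cells, 92.1 in Asc-GFP and 55.8 in Asc-RFP. Asc-GFP over Asc-RFP gave a log2 ratio of 0.72 (0.66 to 0.78), whereas Root eGFP over Root tdTomato cells gave 0.03 (-0.11 to 0.16). Both root groups lay between the 2 ascending groups. The place of Arch-GFP differed by sex. In female cells Id4 was at 69.5 CPM in Arch-GFP, 74.2 in Root eGFP, 73.8 in Root tdTomato and 85.6 in Asc-GFP, and the ratio of Arch-GFP over Root eGFP cells was 0.35 over all cells, -0.09 in female cells and 0.02 with both sexes given the same weight. Genes of the opposite strand overlap Bmp4, Fst and Id4, and the sources used here do not say whether reads were counted by strand. Those genes stood at no more than 0.50 CPM in any library.

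Of the 5 members with a promoter entry in RefSeq (GRCm38.p6), Bmp4, Smad6, Id2, Id3 and Id4, 3 were called between Asc-GFP and Asc-RFP, and their 250 bases before the annotated start are shown to set the genes that were higher in Asc-GFP beside the one that was lower. Capitals mark GGCGCC, a palindrome known from BMP-responsive elements, and GTCT or its reverse complement AGAC, the core of the SMAD-binding element. They lie at chr13:48260866-48261115 on the plus strand for Id4, chr9:64022060-64022309 on the minus strand for Smad6 and chr14:46390670-46390919 on the minus strand for Bmp4.
Id4: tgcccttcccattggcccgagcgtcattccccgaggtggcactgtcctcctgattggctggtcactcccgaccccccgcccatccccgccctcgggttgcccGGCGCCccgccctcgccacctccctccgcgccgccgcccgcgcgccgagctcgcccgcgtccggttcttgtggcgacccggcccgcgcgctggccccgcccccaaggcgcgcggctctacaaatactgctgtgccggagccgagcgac
Smad6: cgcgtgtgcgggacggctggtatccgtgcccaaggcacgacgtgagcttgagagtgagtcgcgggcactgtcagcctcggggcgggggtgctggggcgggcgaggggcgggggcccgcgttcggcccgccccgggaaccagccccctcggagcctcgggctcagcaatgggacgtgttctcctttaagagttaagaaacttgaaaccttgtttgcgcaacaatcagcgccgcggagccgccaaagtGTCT
Bmp4: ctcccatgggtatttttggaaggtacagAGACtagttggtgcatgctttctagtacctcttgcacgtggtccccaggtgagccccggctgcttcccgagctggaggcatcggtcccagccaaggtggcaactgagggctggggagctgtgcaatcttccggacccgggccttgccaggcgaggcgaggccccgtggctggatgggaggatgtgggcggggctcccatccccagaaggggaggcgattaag
On both strands, GGCGCC was in the windows of Id2 and Id4, 2 of the 5, and in 9.59% of 32851 promoters of the same length. In Id4 it began 148 bases before the start. GTCT was in all but the Id4 window, and in 82.9% of all promoters, so it is close to universal at this length. The full palindrome GTCTAGAC was in none of the 5 windows and in 0.167% of all promoters. GTCT and GTCTAGAC overlap by construction. The 5 windows held 62.8% to 75.6% G and C, above the median of 52.4% over all promoters. The windows of Id2 (chr12:25096093-25096342) and Id3 (chr4:136143572-136143821) lie inside the gene bounds given above, which are not from RefSeq. These windows are thus upstream of the RefSeq start only.

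Counting a gene as called when its log2 ratio was at least 0.5 in size, its interval left out 0 and it reached 5 CPM in either group, Asc-GFP over Asc-RFP called 3 of 9 measured members higher, Fst, Id4 and Smad6, where 1.66% of all 9711 measured genes were called higher. It called 1 of 9 lower, Bmp4, where 1.93% of genes were called lower. The median ratio of the 9 members was 0.27, against 0.02 over all measured genes. All 10 ratios had the same sign in female and in male cells, 9 positive and 1, Bmp4, negative. In female cells the intervals of Id1 (0.01) and Chrdl1 (0.49) held 0, and Chrdl1 was under 5 CPM in both groups. Id4 was at 0.78 in female and 0.80 in male cells, and Smad6 at 0.71 and 0.79. At a size of 1 no member was called.

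In the root the reporter divided the members otherwise. Root eGFP over Root tdTomato cells called 0 of 9 higher, with 1.61% of all genes higher. It called 2 lower, Fst and Bmp4, with 3.64% of all genes lower. The members' median was -0.21, against 0.01 over all genes, and Smad7 at -0.25 and Id1 at -0.27 were below 0 by more than counting error while under the call size. Root endothelial marker cells held 368 CPM of Smad7 and 566 of Id1, against 94.2 and 175 in root cells without markers of another type. Marker cells of other types held 6.48% of Smad7 and 5.14% of Id1 UMIs of Root tdTomato cells. In Root eGFP cells they held 0.318% and 0.256%. These 2 ratios without marker cells are not given here. In male cells Smad7 was at 0.09 and Id1 at 0.03, and 2 of the 6 Id and inhibitory SMAD genes had the same sign in both sexes. Id4 at 0.03 and Smad6 at -0.21, both called higher in Asc-GFP than in Asc-RFP, were not called here. The difference between the reporter ratios of the 2 segments was not tested.

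Root tdTomato cells over Asc-RFP gave the most calls among cells of 1 reporter. Fst, Bmp2, Smad6, Smad7, Id1 and Id3 were higher, 6 of 9 measured members, where 5.25% of all genes were called higher, and none was lower, where 2.93% were. The ratios were 1.65, 1.29, 1.13, 0.99, 0.72 and 0.65. Without cells that held at least 10 Fst UMIs, Fst was at 6.28 CPM in Root tdTomato cells against 3.91 in Asc-RFP. The median of the 9 members was 0.72, against 0.01 over all genes. The 6 Id and inhibitory SMAD genes were higher in both sexes, for example Smad7 by 1.24 in female and 1.0 in male cells. The same count of 6 was reached without marker cells of other types. Cardiomyocyte markers summed to 305 CPM in Root eGFP cells and 1009 in Root tdTomato cells, with all 7 detected, against 62.7 in Asc-GFP (Myl7 at 0) and 342 in Asc-RFP (Nppa at 0), and their part in these ratios was not tested. For GFP-positive cells the root excess was smaller. Root eGFP cells over Asc-GFP called Bmp2 higher, 1 of 8 measured members beside 3.81% of all genes, and Fst lower, 1 of 8 beside 3.97%. There Smad7 at 0.47, Id1 at 0.39 and Id3 at 0.29 were above 0 beyond counting error and under the call size over all cells, and Id4 was at -0.27. Within 1 sex Smad7 was past that size, at 0.53 in female and 0.78 in male cells, and Id3 was at 0.29 in female and 0.73 in male cells.

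The whole Root library, with cells of both reporters, was also compared. Root over Asc-GFP called 5 of 9 members higher beside 5.39% of all genes, and Root over Asc-RFP called 6 of 9 higher beside 5.08%. Neither called a member lower, beside 3.32% and 2.84% of genes. Of the 5 calls over Asc-GFP, Bmp4 (0.66) was at 0.39 without marker cells of other types, and Fst (0.51) was at -0.65 in male cells and -0.08 with both sexes given the same weight. These 2 comparisons share the Root library, so they are not independent.

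Arch-GFP over Asc-GFP called Chrdl1 alone among 9 measured members, higher, beside 2.15% of all genes higher, and none lower, beside 0.729%. The 4 Id genes lay between 0.09 and 0.40 there, and 3 of the 6 Id and inhibitory SMAD genes had opposite signs in female and male cells. Id1 was at 0.29 over all cells, -0.30 in female and 0.14 in male cells, and Smad6 at 0.17 over all cells, -0.28 in female and 0.04 in male cells. With both sexes given the same weight, Id1 was at -0.08 and Smad6 at -0.12, while Id3 stayed above 0 at 0.23.

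Arch-GFP over Root eGFP cells called Chrdl1 (2.34) and Fst (1.11) higher, 2 of 9 beside 7.29% of all genes, and Bmp2 (-1.12) and Smad7 (-0.55) lower, 2 of 9 beside 4.82%. Arch-GFP over the whole Root library called 1 of 10 higher beside 6.12% and 3 lower, Bmp4, Bmp2 and Smad7, beside 5.94%. Within 1 sex, 5 of the 6 Id and inhibitory SMAD genes were lower in Arch-GFP than in Root in both sexes, Id4 being the exception. Smad7, for example, was at -1.30 in female and -0.86 in male cells. Over all cells the Id genes were at -0.30 to 0.39 in this comparison.

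**Figure D3:**
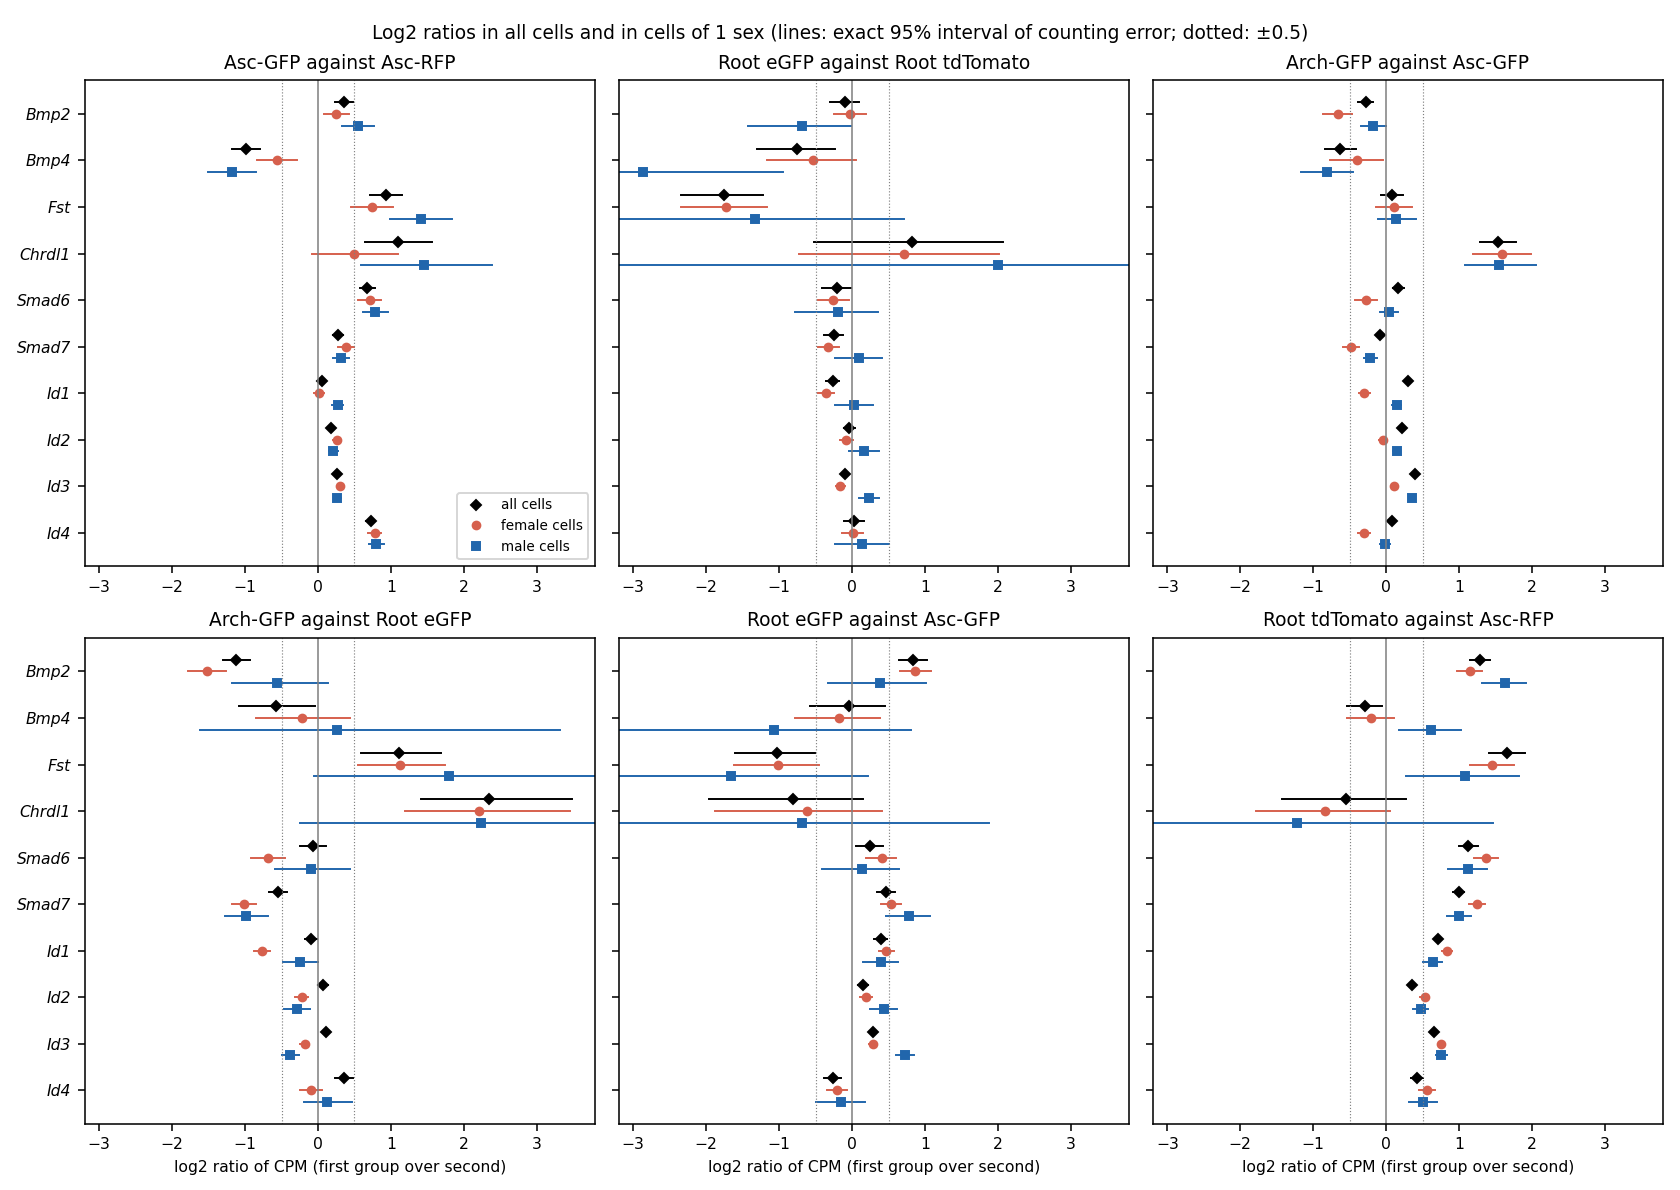
Log2 ratio of the level (x axis) for each gene (y axis) in 6 comparisons, over all cells, female cells and male cells. Lines are exact 95% intervals of counting error and dotted lines mark a size of 0.5. Female and male cells share a sign for all 10 genes in Asc-GFP against Asc-RFP, though the female lines of Id1 and Chrdl1 cross 0. In Arch-GFP against Asc-GFP the all-cell value of Id1, 0.29, lies above both sexes' values, -0.30 and 0.14.

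The members also differed between male and female cells of the same library, and the share of each sex differed between libraries. In all 4 libraries, each of the 6 Id and inhibitory SMAD genes was higher in male than in female cells, 24 of 24 ratios, from 0.10 to 0.95. The median over all measured genes was 0.00 to 0.03. Among measured genes the 24 ratios stood at percentiles from 62.3, for Id1 in Root, to 99.7, for Id1 in Arch-GFP. These genes go together in single cells, so the 24 ratios are not independent. In Arch-GFP, Id1 was at 162 CPM in male and 83.7 in female cells, Smad7 at 64.6 in male and 37.6 in female cells, and Smad6 at 38.7 in male and 21.8 in female cells. The Arch-GFP values gave 6 of 9 measured members called higher in male cells (Id1, Smad6, Smad7, Id4, Bmp2 and Id2) beside 1.71% of all genes, and none lower, beside 2.46%. Asc-GFP called 3 of 9 higher, Smad6, Smad7 and Id1, at 0.51 to 0.52, beside 0.683% of all genes, and none lower, beside 1.73%. These lay just past the call size, and none was called when a cell needed at least 3 Xist or Y-linked UMIs to be given a sex, where Id1 was at 0.41.

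In Asc-RFP Smad7 (0.59) and Bmp4 (0.67) were called higher in male cells beside 0.823% of all genes, and Fst (-0.80) lower beside 2.07%. In Root Bmp4 (0.99) was called higher beside 7.76%, and Fst (-1.28) lower beside 3.92%. Id1 at 0.10 and Smad6 at 0.13 were within counting error there. Without marker cells of other types Bmp4 was at 0.16 in Asc-RFP and 0.11 in Root. The sources used here do not give the number of animals of each sex in a library, so sex and animal cannot be told apart. Immediate-early genes, which respond fast to stress such as tissue dissociation, also differed. The 20 of that list summed to 2934 CPM in male and 3783 in female cells of Arch-GFP, and were lower in male cells of all 4 libraries. In the tercile of cells with the least of that list, Id1 in Arch-GFP was at 1.0 for male over female cells, Smad6 at 1.0 and Smad7 at 0.82. In that tercile the direction did not hold everywhere. Smad6 (-0.12), Smad7 (-0.11) and Id1 (-0.14) in Root and Id1 (-0.04) in Asc-RFP lay below 0, with intervals that held 0.

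**Figure D4:**
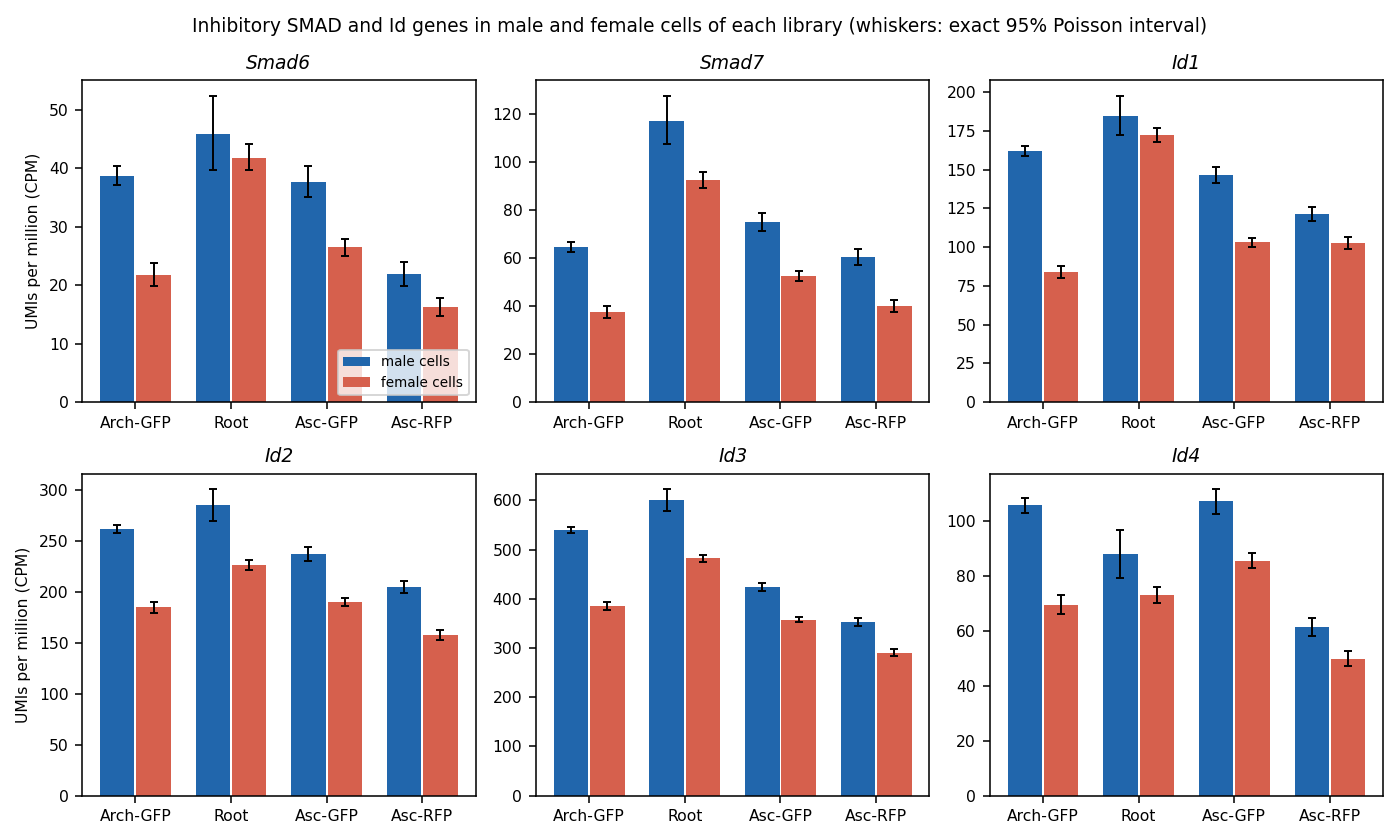
Level in CPM (y axis) of the 2 inhibitory SMAD genes and the 4 Id genes in male and in female cells of each library (x axis). Whiskers are exact 95% Poisson intervals. The male bar is the higher in all 24 pairs over all cells, and Id1 in Arch-GFP stands at 162 in male and 83.7 in female cells.

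The immediate-early list also differed between segments. It summed to 3170 CPM in Arch-GFP, 5010 in Root eGFP cells, 4564 in Root tdTomato cells, 3291 in Asc-GFP and 3456 in Asc-RFP, and all 20 genes were detected in each. Cells were ranked by this list with cut points common to the 4 libraries. In Root, Smad6, Smad7, Id1, Id3 and Id4 were lower in cells with more of it. Fst was at 14.9 CPM in the lowest, 17.0 in the middle and 6.70 in the highest tercile of Root cells. Smad7 stood at 117 CPM in the lowest tercile of Root cells and at 81.6 in the highest, and Id3 at 564 in the lowest and 440 in the highest. In Asc-GFP the lowest and highest terciles were closer, at 62.4 and 53.9 CPM for Smad7 and 386 and 370 for Id3. In Asc-RFP they ran the other way, at 43.6 and 52.4 for Smad7 and 298 and 339 for Id3. In the lowest tercile alone, the ratio of Root over Asc-RFP was larger, 1.43 for Smad7 and 1.5 for Smad6, against 0.96 and 1.13 over all cells. Root eGFP cells held 17 of their 30 Fst UMIs in that tercile, on 149 cells, and their Fst ratios to Arch-GFP and Asc-GFP changed sign there. The part of the immediate-early level in the segment ratios was not tested.

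Across single cells the Id genes went together weakly. The Pearson correlation of log-normalised counts was 0.28 to 0.33 for Id1 with Id3 within each library, with 2960 to 8031 cells, and within each sex of each library it was 0.26 to 0.36. Id2 with Id3 gave a mean over libraries of 0.22, Smad7 with Id3 0.21 and Smad6 with Smad7 0.14. Neither secreted ligand ran with the targets in the same cell to that degree. Bmp2 with Id1 gave 0.04 to 0.12 and Bmp4 with Id1 -0.02 to 0.03. Cells of a library share their depth and free RNA, and these weak values in sparse counts are given as a description.

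By the rule for genes most like a member over cells, Sost led the list for Smad6, Smad7, Id1, Id2, Id3 and Id4, at mean correlations of 0.14 to 0.22. Sost encodes sclerostin, a secreted antagonist of WNT signalling of the DAN family known from bone. Its level was 1214 CPM in Arch-GFP, 938 in Root eGFP cells, 841 in Root tdTomato cells, 1113 in Asc-GFP and 713 in Asc-RFP. Over those 5 groups it was also the gene nearest to Id4 among 6037 candidates, with a root mean square difference of centred log2 level of 0.06. The next after Sost were Emb for Id2 and Id4, Cd200 for Id1 and Id3, Epas1 for Smad6 and Nfib for Smad7. In Root the correlation of Sost with Id1 was 0.09, against 0.24 to 0.27 in the other libraries.

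Cells were also divided by Sost within each library and sex, after thinning to 4000 UMIs and with Sost left out of the totals. Cells with at least 6 Sost UMIs were set against cells with 0. Sost was picked from these same cells for its correlation with the Id and inhibitory SMAD genes, so a higher level of these genes in Sost-rich cells restates that choice, and the values below only describe its size. Id1 was higher in the Sost-rich cells in all 8 groups of library and sex, by 0.44 to 1.65, and was called in 7. In female Asc-GFP cells it was at 151 CPM in the 1007 Sost-rich cells, against 48.2 in the 275 Sost-free cells. Smad6, Smad7, Id2 and Id4 were likewise above 0 in 8 of 8 groups and Id3 in 7 of 8, the exception being male Root cells at -0.52 with 46 rich and 109 free cells. Fst and Bmp4 were each called lower in 3 of 8 groups, and their intervals held 0 in the other 5. Bmp2 was above 0 in 8 of 8 groups, was called higher in 2, and its interval held 0 in 6. In female Root cells 2 of 9 measured members were called higher and 2 lower, beside 2.93% and 8.61% of all genes, and in male Root cells 2 of 9 higher and 1 lower, beside 3.28% and 4.67%. In the other libraries more members were called. Female Asc-GFP cells gave 6 of 9 higher and 1 lower, beside 2.53% and 3.12%, and male Asc-GFP cells 5 of 8 higher and 0 lower, beside 1.9% and 2.1%. Female Asc-RFP cells gave 5 of 9 higher and 0 lower, beside 2.75% and 3.69%, and male Asc-RFP cells 6 of 8 higher and 0 lower, beside 3% and 4.03%. In Arch-GFP, 6 of 10 were higher and 1 lower in female cells, beside 2.69% and 3.13%, and 4 of 10 were higher and 2 lower in male cells, beside 1.96% and 3.41%. The 12 smooth muscle markers summed to 55710 CPM in the Sost-rich and 53815 in the Sost-free cells of female Asc-GFP, and immediate-early genes to 4004 in the Sost-rich and 3468 in the Sost-free cells.

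**Figure D5:**
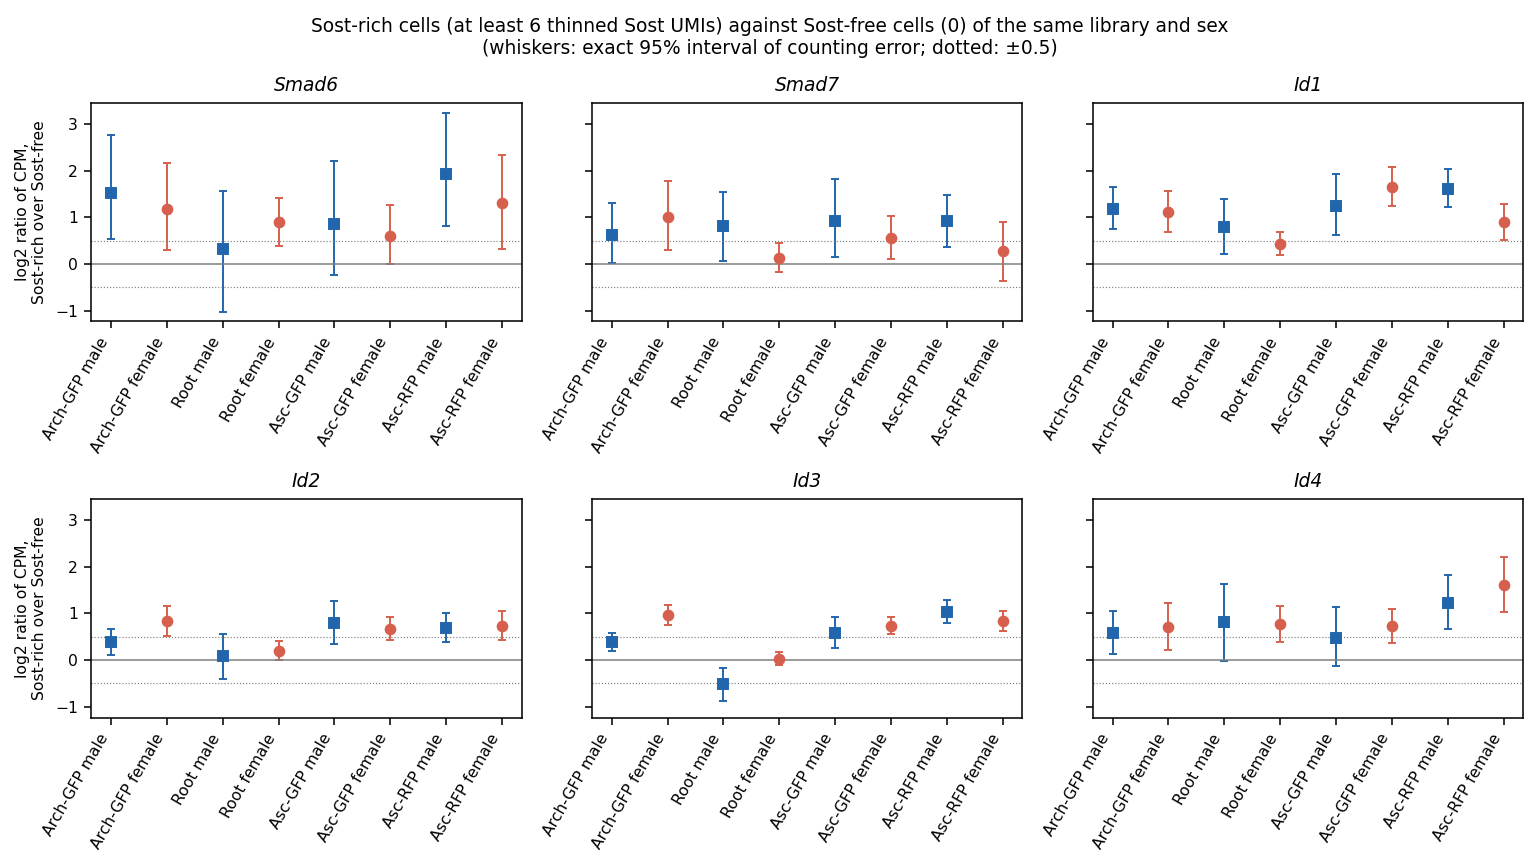
Log2 ratio of the level in Sost-rich over Sost-free cells (y axis) for 2 inhibitory SMAD genes and 4 Id genes, in male and female cells of each library (x axis). Whiskers are exact 95% intervals of counting error. Sost was picked for its correlation with these genes in these cells, 47 of the 48 points lie above 0, and the 1 below is Id3 in male Root cells.

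The other genes nearest to each member over the 5 groups showed which pattern each followed. Slc5a3 and Plxna2 were among those that followed Bmp2. Stbd1, Cd44 and C2cd2 followed Smad7, and Fabp5, Tspan7 and Man2a1 followed Smad6. Cdkn1a, Gja1 and Cyp2d22 followed Id1, and Cttnbp2nl, Dync1li1 and Ahi1 followed Id2. Errfi1, Grk5 and Dnaja1 followed Id3, and Abra and Samd9l came after Sost for Id4. For these the root mean square difference was 0.12 or less. For Bmp4 (Dapk2, 5033428I22Rik and Aspn), Fst (Atp1b1, Adam11 and Cox4i2) and Chrdl1 (Fez1, Bdh1 and Kcnc4) it was 0.24 to 0.41. With 5 groups such likeness is a description. Over cells, Acan and Pln were the nearest to Bmp2, and Dcn, Mmp2 and Pcolce2 to Fst.

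The rest of the pathway was read from a list of 56 genes, of which 35 to 37 reached 5 CPM in a comparison. The list sets them under the headings ligands, receptors, binding proteins, transducers and targets, with Bmp1 under ligands. Between Asc-GFP and Asc-RFP 3 were called higher and 1 lower of 35, beside the 1.66% and 1.93% of all genes. Bmp3, an atypical ligand, was the lower one, at 48.3 CPM in Asc-GFP against 87.4 in Asc-RFP. Sost (0.64), Vwc2, which encodes a chordin-type binding protein (0.91), and Smad9, a BMP receptor-regulated SMAD (0.51), were higher. None of the 10 receptor genes was called, and their median was 0.04.

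Between Root eGFP and Root tdTomato cells 0 of 35 were higher and 2 lower, beside 1.61% and 3.64% of all genes. The lower ones were Bmp3, at 20.5 CPM in Root eGFP against 54.2 in Root tdTomato cells, and Eng, at 27.5 in Root eGFP against 45.4 in Root tdTomato cells. Eng encodes endoglin, a co-receptor abundant in endothelial cells. Arch-GFP over Asc-GFP called 3 of 37 higher and none lower, beside 2.15% and 0.729% of all genes. Msx2, a homeobox target of BMP signalling, was at 8.94 CPM in Arch-GFP against 0.369 in Asc-GFP. Gdf10, a ligand of the BMP3 subgroup, was at 8.22 against 1.95, and Nbl1, a DAN-family antagonist, at 63.0 against 33.4.

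Arch-GFP over Root eGFP cells called 9 of 37 higher and 3 lower, beside 7.29% and 4.82% of all genes. Among the higher ones Nbl1 was at 1.53 and Bmpr1b, a type I receptor, at 58.6 CPM in Arch-GFP against 25.7 in Root eGFP cells. Bmp1, Bmp3, Gdf10, Acvrl1, Chrd, Vwc2 and Msx2 were the other higher ones, and Inhbb, Crim1 and Hey2 the lower. Root eGFP cells over Asc-GFP called 4 of 36 higher (Gdf10, Inhbb, Crim1 and Msx1) and 5 lower (Bmp1, Bmp3, Bmpr1b, Chrd and Nbl1), beside 3.81% and 3.97% of all genes. Root tdTomato cells over Asc-RFP called 4 of 35 higher (Eng, Vwc2, Smad9 and Atoh8, a BMP target, at 0.71) and 4 lower (Bmp3, Bmpr1b, Chrd and Nbl1), beside 5.25% and 2.93% of all genes. The ligand Bmp3, the antagonists Chrd and Nbl1 and the receptor Bmpr1b were thus lower in both comparisons of root with ascending cells. These comparisons have no cells in common but share the Root library as a source. The share of all genes called lower in both is not given here. The list's median stayed near that of all genes in this last comparison, at 0.00 against 0.01, while the 9 members had a median of 0.72. Members and list were chosen with earlier results of these data known, so this contrast is a description.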

How the data were processed

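The deposited files hold UMI counts per gene and barcode for 4 libraries; per the file headers the authors made these counts with Cell Ranger 7.0.0, and the submitters' processing notes name the mm10 build and Seurat 4.3. The normalised values and cell calls the authors derived from them were not used here. The 10 genes, the lists and the rules were chosen with earlier results of these data known. Barcodes below 1000 detected genes or above 10% mitochondrial UMIs were dropped, after which the libraries held 39691658 to 100987052 UMIs. Barcodes in the files equal the cell numbers stated before filtering, and the numbers stated after filtering, 1841 in Root to 4710 in Arch-GFP, were lower than those kept here.

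UMIs were summed over the cells of a group and divided by the group's total, giving CPM (Python 3.11.15, numpy 2.4.6, scipy 1.17.1, pandas 2.3.3). A call needed a log2 ratio of 0.5 or more up or down, an exact 95% conditional binomial interval without 0 and 5 CPM in either group. Cells are not replicates, so no p-value was computed. Cells with Xist and no UMI of 4 Y-linked genes were taken as female, and the reverse as male. No doublet caller was run. Cells with UMIs of both sexes, with both reporters or in the top 5% of UMIs were left out in an alternative. The comparisons of male with female cells, Sost-rich with Sost-free cells and cells rich in a member were added after the data were seen. Genes named beside the members are those called in the pathway list and the 3 nearest to each member by either likeness, a root mean square difference of centred log2 level or a mean correlation over cells; some of these genes are not reported here. The ratio, interval and call steps were tested on simulated data.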

Additional observations from a re-analysis of the deposited data

Results flagged for a closer look

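Of 90 pairs of a member and a comparison, 15 had opposite signs in female and male cells, and in 4 of these both intervals left out 0. The difference between the sexes was not tested in any of them, and sex and animal cannot be told apart. Id3 in Root eGFP over Root tdTomato cells was at a log2 ratio of -0.16 in female and 0.23 in male cells. Id1 in Arch-GFP over Asc-GFP was at -0.30 in female and 0.14 in male cells. Fst in Root over Asc-GFP was at 0.49 in female and -0.65 in male cells, and Fst in Arch-GFP over Root at -0.38 in female and 0.79 in male cells.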

How the results depend on the processing

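No paired analysis was possible because each condition had 1 library and no replicate numbers. Of 1220 recomputed ratios of members, 847 moved by less than their interval. The sign differed in 90, and in 7 of these the ratio had been called. Ratios moved most when cells were taken by sex or by immediate-early tercile. In female cells alone 40 of 90 stayed within their intervals, and in male cells alone 30 of 90. With both sexes at the same weight 33 of 90 stayed, and in the lowest tercile 41 of 130. These settings keep only part of the cells, for example 64 male and 149 lowest-tercile cells of 576 Root eGFP cells. Ratios can thus also move through lower counts, and the part of this was not tested. Leaving out possible doublets kept 88 of 90, stricter Root reporter limits 40 of 40, a median-of-ratios size factor 126 of 130, leaving out marker cells 123 of 130, stricter quality limits 101 of 130 and thinning 96 of 130.

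The number of called members was 4 for Asc-GFP over Asc-RFP, and 2 at a minimum of 20 CPM or 0 at a log2 size of 1. For Root eGFP over Root tdTomato cells it was 2, and 1 without marker cells of other types, in female cells or at a size of 1, and 0 in the lowest immediate-early tercile or at 20 CPM. For Arch-GFP over Asc-GFP it was 1, and 2 in female cells, in male cells, in the lowest tercile, with stricter quality limits, after thinning or with no minimum level, and 0 at 20 CPM. For Arch-GFP over Root eGFP cells it was 4, with 1 in male cells and 2 at 20 CPM. For Root eGFP cells over Asc-GFP it was 2, with 5 in the lowest tercile and 1 after thinning, at 20 CPM or at a size of 1. At a size of 1, Root tdTomato cells over Asc-RFP and Root over Asc-RFP each gave 3 in place of 6, and Root over Asc-GFP gave 0 in place of 5, with 3 at 20 CPM. Arch-GFP over Root gave 7 in the lowest tercile and 2 at 20 CPM in place of 4. The shares of all genes called under these settings are not given here for each comparison. A change in the members therefore cannot be told apart from a change over all genes.

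For male over female cells, alternatives chosen after seeing the data gave in Root 1 in place of 2 in the lowest tercile, without marker cells or after thinning. In Asc-GFP they gave 1 in place of 3 in the lowest tercile, after thinning or with a median-of-ratios factor, and 0 with at least 3 Xist or Y-linked UMIs. In Asc-RFP they gave 1 in place of 3 after thinning. The shares of all genes called under these alternatives are not given here either, so the same limit holds.

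In the lowest tercile Bmp4 turned to 0.55 for Root eGFP over Root tdTomato cells, and Fst to -0.38 for Arch-GFP over Root eGFP cells and to 0.088 for Root eGFP cells over Asc-GFP. For Root over Asc-GFP, Fst turned to -0.65 in male cells and -0.081 with both sexes at the same weight. Bmp4 in male over female Asc-RFP cells turned to -0.15 with at least 3 Xist or Y-linked UMIs and -0.078 in the lowest tercile. The cause was not tested.

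Over all genes the number called for Asc-GFP over Asc-RFP was 348, with 146 at 20 CPM, 1746 with no minimum level and 124 at a size of 1. These 3 settings moved the count by over 1.5 times in all 9 comparisons. Counting error limits Fst, Bmp4 and Chrdl1 most, with 30, 36 and 9 UMIs in Root eGFP cells.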

Other observations

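Cells rich in Bmp2 were also set beside cells without it for Acan, the gene nearest to Bmp2 over these same cells. More Acan in Bmp2-rich cells restates that choice, so the values below only describe its size. In Asc-GFP, Acan, which encodes the cartilage proteoglycan aggrecan, stood at 150 CPM in the 108 cells with at least 3 Bmp2 UMIs, against 34.6 in the 5259 cells without any, marker cells of other types being left out. In Arch-GFP it stood at 85.3 in 77 such cells against 30.4, in Root tdTomato cells at 81.0 in 87 against 28.1, in Root eGFP cells at 87.5 in 19 against 40.7, and in Asc-RFP at 62.7 in 46 against 11.9. Bmp2-rich cells had a median of 15634 UMIs in Asc-GFP, against 12666 in the cells without Bmp2. These values describe cells of 1 library each and were chosen after their values were seen.

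In Arch-GFP, Fst-rich cells carried the matrix genes Dcn, at 380 CPM in 73 cells against 10.6 in cells without Fst, and Pcolce2, at 210 against 95.1. Both genes were among the nearest to Fst over these same cells, so higher values in Fst-rich cells restate that choice. In Asc-GFP the 51 Fst-rich cells had 5.27 CPM of Dcn, against 14.9 in the cells without Fst, while Pcolce2 stood at 231 against 88.5.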
